A study of Mus musculus with 2 samples.

Results

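The cytosolic heat shock proteins examined here were 10 genes, taken as all non-control array probes whose RefSeq accession belongs to a member: the inducible Hsp70 genes Hspa1a and Hspa1b, the constitutive Hsp70 gene Hspa8, the Hsp110 gene Hsph1, the Hsp40 genes Dnaja1 and Dnajb1, the Hsp90 genes Hsp90aa1 and Hsp90ab1, and the small heat shock genes Hspb1 and Hspb8. They had 18 probes of 56604 on the array, and they are 10 of 22911 genes that could be named. The samples were whole pancreas from male C57BL/6 mice aged 5 weeks. The Nrdc-cKO sample had the genotype Ptf1a-Cre; Nrdc flox/flox, in which Cre is driven by Ptf1a, a factor active in the progenitors of the gland and later in acinar cells. Cre deletes the floxed alleles of Nrdc, the gene of the metalloendopeptidase nardilysin, and pancreatic cells with no history of Ptf1a keep the gene. The other sample was WT, and the labels do not state its Cre and flox alleles further. Each group had 1 array, hybridised with Cy3-labelled RNA, and the labels do not say whether an RNA came from 1 animal or a pool. With 1 array a group there was no test, and every difference describes these 2 arrays.

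Heat shock proteins are chaperones that hold, fold or release other proteins. Hsp70 binds unfolded stretches with the help of Hsp40 co-chaperones, Hsp110 exchanges its nucleotide, Hsp90 matures kinases and receptors, and small heat shock proteins keep unfolded proteins soluble. Some of these genes are always expressed, and others are switched on by heat shock factor 1, Hsf1, which binds repeats of the unit nGAAn, called heat shock elements, when unfolded protein builds up. In the pancreas, acinar cells carry a heavy load of secretory protein, which is folded in the endoplasmic reticulum by a separate set of chaperones.

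The sequences before the start sites are shown because the members searched differ in their matches to heat shock elements. Only exact matches were searched, so imperfect units were not counted. RefSeq windows of GRCm38.p6, with 250 bases before and 50 after each annotated start, were available for 7 of the 10 members, and the first 250 bases of the most upstream window are given 5′ to 3′ for 5 of them. Capitals mark a pair of facing units, GAANNTTC or TTCNNGAA.
Hspa1a, chr17:34972157-34972406, minus strand: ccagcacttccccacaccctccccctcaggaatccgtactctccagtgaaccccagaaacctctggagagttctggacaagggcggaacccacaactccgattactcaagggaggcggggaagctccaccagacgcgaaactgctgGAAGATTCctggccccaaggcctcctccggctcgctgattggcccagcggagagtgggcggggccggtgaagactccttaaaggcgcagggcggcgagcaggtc
Hspa1b, chr17:34959239-34959488, minus strand: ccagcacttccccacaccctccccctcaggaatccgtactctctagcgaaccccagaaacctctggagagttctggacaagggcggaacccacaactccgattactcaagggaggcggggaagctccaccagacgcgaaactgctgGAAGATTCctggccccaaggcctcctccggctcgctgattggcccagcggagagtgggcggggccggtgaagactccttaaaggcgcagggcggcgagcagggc
Hspb1, chr5:135887669-135887918, plus strand: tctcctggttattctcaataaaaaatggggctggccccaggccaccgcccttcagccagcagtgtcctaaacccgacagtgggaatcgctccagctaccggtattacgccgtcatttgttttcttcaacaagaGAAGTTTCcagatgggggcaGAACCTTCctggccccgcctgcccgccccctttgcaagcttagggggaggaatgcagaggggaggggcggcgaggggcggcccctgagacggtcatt
Hsph1, chr5:149636337-149636586, minus strand: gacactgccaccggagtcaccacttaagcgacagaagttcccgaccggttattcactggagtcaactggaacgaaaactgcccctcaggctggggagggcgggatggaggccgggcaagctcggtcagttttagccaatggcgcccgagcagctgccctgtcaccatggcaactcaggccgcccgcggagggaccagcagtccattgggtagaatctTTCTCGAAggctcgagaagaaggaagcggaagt
Dnajb1, chr8:83607925-83608174, plus strand: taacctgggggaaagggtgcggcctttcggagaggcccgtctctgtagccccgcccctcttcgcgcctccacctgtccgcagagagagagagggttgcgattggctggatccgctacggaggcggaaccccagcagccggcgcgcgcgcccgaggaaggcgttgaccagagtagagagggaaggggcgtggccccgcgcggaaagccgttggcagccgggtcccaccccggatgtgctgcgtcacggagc

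The windows of Hspa1a and Hspa1b, which are both on chromosome 17, were 98.7% identical over 300 positions. They differed by C44T, T47C, T249G and C276T, with the Hspa1a base first and positions counted from 1 at the 5′ end of the window, and all 4 lay outside the capitals. Each of the pair held GAANNTTC at -104 to -97 from the start site. Hspb1 held it at -117 to -110 and again at -97 to -90, Dnaja1 at -124 to -117 and Hspb8 at 3 to 10. Hsph1 alone of the 7 had a run of 3 units, which is TTCNNGAA and GAANNTTC overlapping in the shared GAA, with the letters TTCTGGAAAGTTC at 37 to 49 after the start. It also held TTCNNGAA at -33 to -26. The 3-unit run contains both shorter motifs, so these matches overlap.

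**Figure D1:**
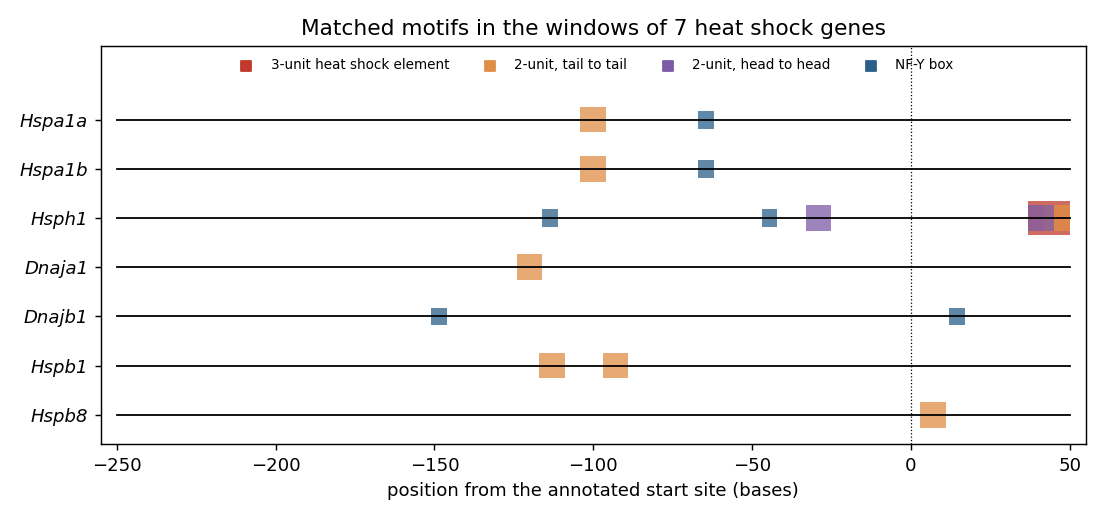
Positions of motif matches from the annotated start site, in bases, in the most upstream window of 7 heat shock genes, read on both strands. Coloured blocks are the 3-unit heat shock element, its 2-unit forms and the NF-Y box. The 2-unit match of Hspa1a and of Hspa1b lies at -104 to -97, and Dnajb1 has no heat shock element match.

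GAANNTTC, which reads the same on both strands, was in at least 1 window of 6 of the 7 members, against 9.04% of the 27025 genes with a window, counted the same way. The 3-unit run, read on both strands, was in 1 of the 7 members, against 0.662% of these genes. Dnajb1, whose signal was more than 2-fold higher on the Nrdc-cKO array, had neither. Over the 10349 genes with a window and a measurement, 725 held GAANNTTC. Of these, 14.8% were 2-fold or more higher in the Nrdc-cKO sample, against 12.1% of all 10349. Of 60 genes with the 3-unit run, 10% were, and their median log2 difference was -0.31, against -0.18 for genes without it. A match is a run of letters in a short window, and no binding was measured.

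All 10 members had a higher level on the Nrdc-cKO array than on the WT array, and the inducible Hsp70 genes differed by more than the other members did. A level is the log2 processed signal minus the 75th percentile of its array, so that 0 is the 75th percentile, and a difference is Nrdc-cKO minus WT. Members cannot be ranked by level, since each probe has its own brightness. The median difference of the 10 members was 0.74, against -0.18 over all 13001 genes measured on both arrays. Differences above 0 were seen in 10 of 10 members and in 41.3% of all genes. Of the members, 3 were at least 2-fold higher, against 12.8% of all genes, and 0 were at least 2-fold lower, against 17.3% of all genes. The 3 were Hspa1a, Hspa1b and Dnajb1, and each was read by 1 probe with 1 spot on each array. At 1.5-fold, 6 members were higher, against 20.1% of all genes. The technical SD of a difference, from 291 probes with repeat spots, had a median of 0.032 and a 95th percentile of 0.074, and it leaves out the animal, dissection, RNA extraction and labelling.

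**Figure D2:**
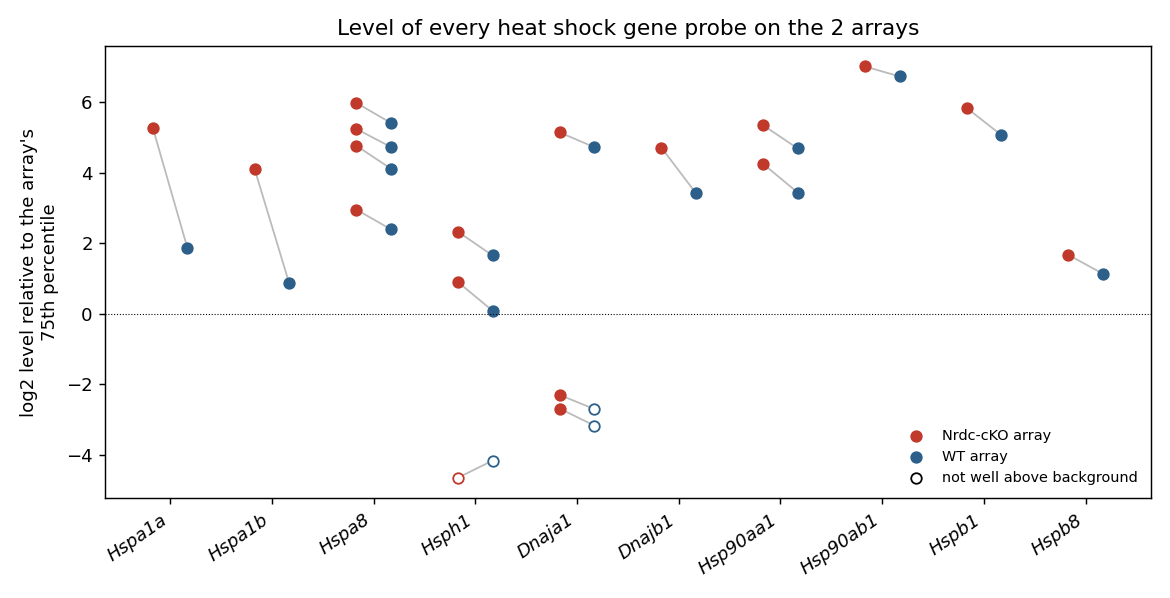
Level of each of the 18 probes of the 10 heat shock genes on the Nrdc-cKO array (left point) and the WT array (right point), in log2 units relative to the 75th percentile of the array. Lines join the same probe, and open points were not well above background. The line is steepest for Hspa1a and Hspa1b.

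Hspa1a, a stress-inducible cytosolic Hsp70 with little expression in most unstressed cells, had a level of 5.28 on the Nrdc-cKO array and 1.87 on the WT array. The processed signals behind these levels were 8844 on the Nrdc-cKO array and 259 on the WT array, before scaling. The difference was 3.41, or 10.6-fold, and 67 of 13001 genes had a higher one. Hspa1b, the neighbouring copy with a nearly identical product, had a level of 4.12 on the Nrdc-cKO array and 0.88 on the WT array, from a signal of 3952 on the Nrdc-cKO array and 130 on the WT array. Its difference was 3.24, or 9.45-fold, with 81 genes higher. Differences of 8-fold or more were seen in 0.838% of all genes. The probes of these genes may take up each other's transcripts, so the values are not independent and the share of each copy is uncertain. Counted as 1 gene, they leave 2 of 9 members past 2-fold.

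Hspa8, the constitutive Hsp70 that also uncoats clathrin vesicles, was read by 4 probes. Their levels were 5.99, 5.25, 4.77 and 2.96 on the Nrdc-cKO array, against 5.42, 4.74, 4.12 and 2.40 on the WT array. The 4 differences lay between 0.51 and 0.65, closer together than the levels, with a mean of 0.57, or 1.49-fold. The difference of Hspa1a exceeded that of Hspa8 by 2.83, and that of Hspa1b did by 2.67, on the log2 scale. These gaps are within the arrays and do not depend on adding a constant to either of them. After normexp background correction they were smaller. The gap of Hspa1a was then 2.56 with either scaling, and that of Hspa1b was 2.14 with the 75th percentile and 2.10 with quantile scaling.

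Hsph1, the Hsp110 that acts as a nucleotide exchange factor for Hsp70, had 2 measured probes. One had a level of 0.90 on the Nrdc-cKO array and 0.09 on the WT array, and the other 2.33 on the Nrdc-cKO array and 1.66 on the WT array. The differences were 0.81 and 0.67, with a mean of 0.74, or 1.67-fold. Another probe was not well above background on either array.

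The Hsp40 co-chaperones, which deliver clients to Hsp70 and stimulate its ATPase, were unequal. Dnajb1, the partner most often induced together with Hsp70, had a level of 4.72 on the Nrdc-cKO array and 3.42 on the WT array, from a signal of 5979 on the Nrdc-cKO array and 757 on the WT array. Its difference was 1.30, or 2.46-fold, and 90.4% of all genes had a lower one. Dnaja1, a farnesylated Hsp40, had a level of 5.15 on the Nrdc-cKO array and 4.73 on the WT array, a difference of 0.42. Its other 2 probes were dim, with signals of 46.1 and 35.2 on the Nrdc-cKO array and of 10.9 and 7.86 on the WT array, where neither was well above background.

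The Hsp90 genes differed less than Hspa1a, Hspa1b and Dnajb1 did. Hsp90aa1, the isoform whose transcription is raised by stress, had levels of 4.25 and 5.35 on the Nrdc-cKO array, against 3.44 and 4.69 on the WT array for the same probes. The mean difference was 0.74, or 1.67-fold. Hsp90ab1, the constitutive isoform, had a level of 7.02 on the Nrdc-cKO array and 6.74 on the WT array, and its difference of 0.28, or 1.22-fold, was the smallest of the 10 in the main setting. This order rested on the scaling: with quantile scaling Hsp90ab1 was at 0.95 and Hspb8 lowest at 0.65, and Hspb8 was also lowest with loess and after normexp with either scaling. The difference of Hsp90aa1 exceeded that of Hsp90ab1 by 0.46, but by 0.27 with loess, 0.16 with quantile scaling and 0.05 with normexp and quantile scaling. That of Dnajb1 exceeded that of Dnaja1 by 0.88, and by 0.71 or more in the 12 other settings.

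The small heat shock genes lay among the rest. Hspb1, known as Hsp25 in mice and an actin-associated holdase, had a level of 5.84 on the Nrdc-cKO array and 5.07 on the WT array, a difference of 0.77, or 1.71-fold. Hspb8, which works with the co-chaperone Bag3 in chaperone-assisted autophagy, had a level of 1.67 on the Nrdc-cKO array and 1.13 on the WT array, a difference of 0.54. The 7 members under 2-fold lay between 0.28 and 0.77, and 75% of all genes had a difference below 0.41.

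**Figure D3:**
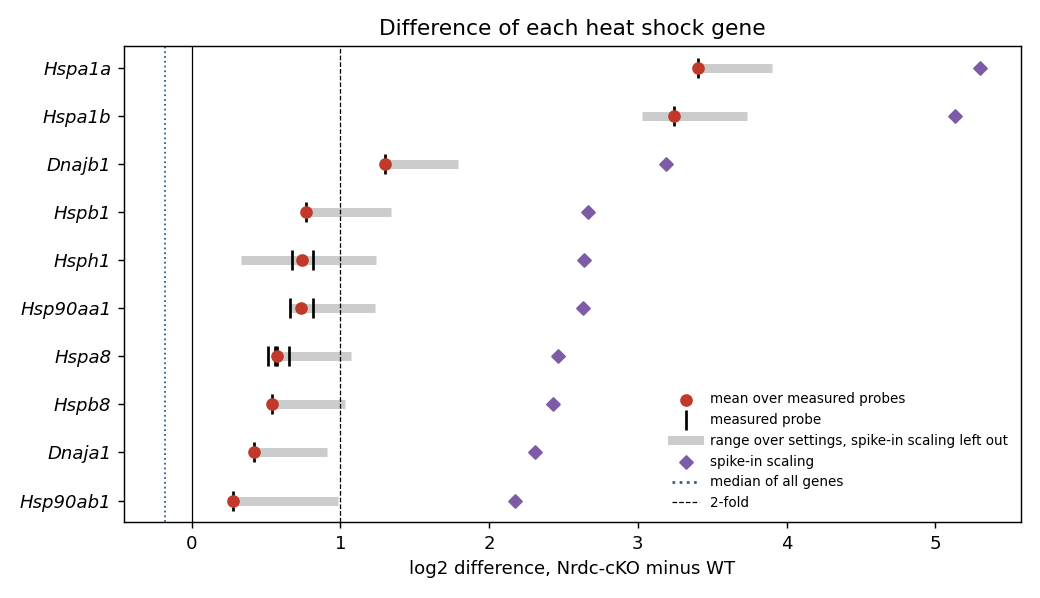
Log2 difference, Nrdc-cKO minus WT, of the 10 heat shock genes. Red points are the mean over measured probes, black ticks the probes, grey bars the range over settings other than spike-in scaling and diamonds spike-in scaling. Hspa1a at 3.41, Hspa1b at 3.24 and Dnajb1 at 1.30 lie right of the 2-fold line in every setting.

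How many members passed 2-fold depended on the scaling between the arrays. Before scaling, the 75th percentile was 227 on the Nrdc-cKO array and 70.8 on the WT array, a gap of 1.68 in log2 units. The count was 5 with quantile scaling, against 13.8% of all genes, and 5 with loess, against 15.1%. It was 8 in the authors' deposited value table, against 22.2%, and 10 with E1A spike-in scaling, against 79.8%. Spike-in scaling adds 1.89 to every difference. All genes move along: their median was -0.07 with quantile scaling, 0.01 with loess, 0.31 in the value table and 1.71 with spike-in scaling. Relative to the median gene of the same setting, the member median stood 0.92 higher in the main setting and 0.84 to 1.16 higher in the 12 other settings, and 10 of 10 members were above the median gene in each of them.

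**Figure D4:**
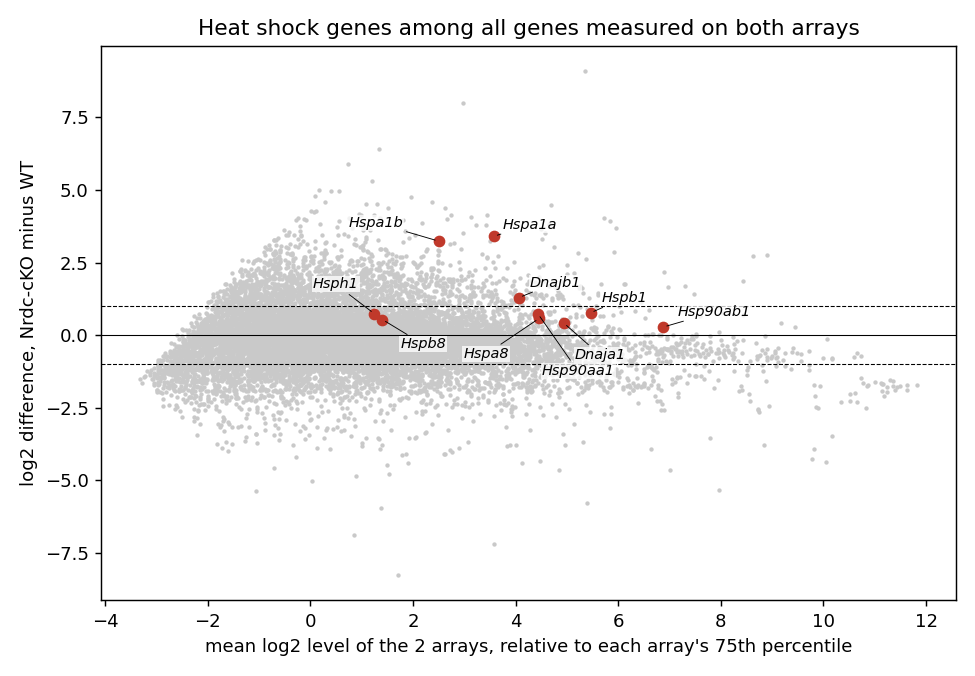
Log2 difference, Nrdc-cKO minus WT, against the mean log2 level of both arrays for 13001 genes (grey) and the 10 heat shock genes (red). Dashed lines mark 2-fold. Hspa1a and Hspa1b are near the top of the cloud, and Hsp90ab1, at 0.28, is the lowest member in this setting.

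Few of the genes that control and assist these chaperones were past 2-fold, except with spike-in scaling, where most were higher. Hsf1, the factor that activates heat shock genes, had a level of 1.65 on the Nrdc-cKO array and 1.64 on the WT array, a difference of 0.01. Of 6 genes of heat shock factors and their regulator, 3 were measured on both arrays, from Hsf2 at -0.08 to the factor-binding protein Hsbp1 at 0.13. All 15 heat-inducible co-chaperones and partners were measured, with a median of -0.10, and 2 of them were past 2-fold, both higher. The 2 were Ier5, an early response gene that promotes Hsf1 activity, at 2.73, and the Hsp110 relative Hspa4l, named after its value was seen, at 1.23 but at 0.45 and 0.66 after normexp. The lowest was Fkbp4, an Hsp90-bound immunophilin, at -0.96. Bag3, a classical target of Hsf1 named after its value was seen, was at 0.05.

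Among 19 other co-chaperones of Hsp70 and Hsp90, 18 were measured, with a median of -0.11, and 2 of them were past 2-fold, both lower. Dnajb2, an Hsp40, was highest at 0.43. The 2 lower ones were the immunophilin Fkbp5, which glucocorticoids induce, at -1.06 and the Hsp70 exchange factor Bag1, named after its value was seen, at -1.04. These 2 calls lay at the threshold: 0 were lower with quantile scaling, detected-probe scaling, loess, the value table or normexp, and 16 of 18 were higher with spike-in scaling. Fkbp5 was read by 2 probes and was at -0.46 by the brighter one alone. With the brightest probe of each gene, 1 gene of this list was lower. The cytosolic chaperonin and prefoldin genes, which fold actin and tubulin, were all 13 under 2-fold, from Vbp1 at -0.73 to Cct6a at 0.22, with a median of -0.22, although all 13 were past 2-fold and higher with spike-in scaling. The 11 mitochondrial chaperones and proteases had a median of -0.32, and 2 were past 2-fold, both lower. Lonp1, the matrix protease, was highest at 0.57 and Grpel2, an exchange factor of mitochondrial Hsp70, lowest at -1.29, and the other lower one, named after its value was seen, was Clpx at -1.17. With loess, the value table and normexp followed by the 75th percentile, 0 were lower and 1, Lonp1, was higher, and with spike-in scaling 9 were higher.

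The other cytosolic heat shock genes went both ways in the main setting. Of 12 listed, 10 were measured, with a median of 0.12, and past 2-fold there were 3 higher and 4 lower genes. Hspb2, a small heat shock gene of muscle, was highest at 2.52 and Hspb9, known from testis, lowest at -1.58. Named after their values were seen, Hspb7 at 1.97 and Hspa12a at 1.97 were higher, and Hspb3 at -1.09, Hspb6 at -1.04 and Hspa1l at -1.03 lower. These counts moved with the scaling and the background correction. They were 0 higher and 1 lower with normexp and the 75th percentile, and 3 and 0 with normexp and quantile scaling. They were 4 and 1 with the 75th percentile over detected probes, 5 and 1 in the value table and 6 and 0 with spike-in scaling. With only probes at least as bright as the median detected probe, 3 genes were left, with 0 higher and 1 lower. Hspa2, known from testis and measured well above background on the Nrdc-cKO array only, was at least 5.43-fold higher. Here the bound sets the Nrdc-cKO level against the higher of the probe's own WT level and the lowest level detected on the WT array.

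The chaperones of the endoplasmic reticulum, the compartment through which digestive enzymes pass, had a median of -1.18, below the median gene, and 4 of the 16, all measured, lay above that gene. Past 2-fold were 9, all of them lower, and 5 with normexp or in the value table. The Hsp70 of this compartment, Hspa5, had a level of 5.71 on the Nrdc-cKO array and 6.33 on the WT array, a difference of -0.62, and its Hsp90, Hsp90b1, was at -0.26. Sdf2l1, which forms a complex with an Hsp40 of this compartment, was lowest at -2.05 and the disulfide isomerase Pdia3 highest at 0.37. With spike-in scaling the median of this list was 0.71 and 7 passed 2-fold upwards, and the list median was still below the median gene of 1.71 in that setting. Immediate early genes, transcription factors and regulators switched on within minutes of many stimuli, had a median of 1.21, and 10 of 15 measured were past 2-fold, all of them higher, in a range from Myc at -0.98 to Egr2 at 2.51. The part of this early response in the heat shock gene differences was not tested.

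**Figure D5:**
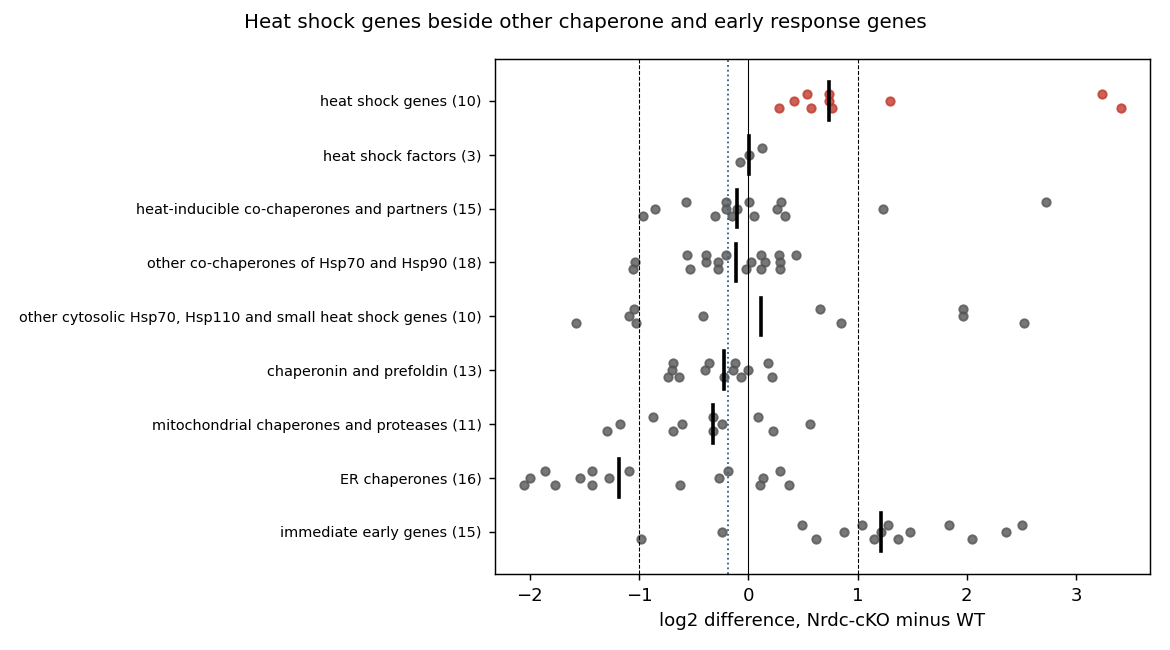
Log2 difference, Nrdc-cKO minus WT, of single genes (points) in the heat shock group and in 8 lists of other chaperone and early response genes, with the number measured in brackets and the median as a black bar. The dotted line is the median of all genes and dashed lines mark 2-fold. The heat shock genes have a median of 0.74, the chaperones of the endoplasmic reticulum -1.18 and the immediate early genes 1.21.

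Markers of cell types differed between the samples as well, and in bulk tissue fewer cells of a type and less RNA per cell cannot be told apart. Nrdc was 9.25-fold lower on the Nrdc-cKO array, at a level of -1.28 against 1.93 on the WT array, by 1 probe whose place relative to the floxed part is not given. Acinar markers were well above background on both arrays, 10 of 10, as the tissue label requires. In the main setting 10 of 10 were at least 2-fold lower, against 5 with loess, 3 with quantile scaling, also after normexp, and 1 with spike-in scaling. Their summed scaled signal was 10075 on the Nrdc-cKO array and 39034 on the WT array. Islet markers were past 2-fold and higher in 8 of 8, with a sum of 2919 on the Nrdc-cKO array and 379 on the WT array. So were 7 of 7 measured stellate cell and fibroblast markers, with 773 on the Nrdc-cKO array and 206 on the WT array, and 5 of 6 macrophage markers, with 30.9 on the Nrdc-cKO array and 11.4 on the WT array. Smooth muscle markers were higher in 3 of 5 measured, with 29.4 on the Nrdc-cKO array and 11.1 on the WT array. Adipocyte markers summed to 356 on the Nrdc-cKO array and 9.51 on the WT array. Without Cfd, the brightest of them on the Nrdc-cKO array, the sums were 137 on that array and 9.47 on the WT array. Of 3 adipocyte markers measured on both arrays, 2 were higher and 1, Lep, was lower, and 4 of 7 were not well above background in WT. Schwann cell and nerve markers were higher in 2 of 2 measured, with 5.26 on the Nrdc-cKO array and 1.56 on the WT array, and 4 more were well above background in Nrdc-cKO alone. Duct markers were mixed, with 3 of 8 higher and 1 lower, and summed to 182 on the Nrdc-cKO array and 34.5 on the WT array. Without Spp1, the brightest of them, the sums were 17.4 on the Nrdc-cKO array and 12.1 on the WT array. Past 2-fold and higher were also 2 of 6 endothelial and 2 of 5 mesothelial markers, and 0 and 1 of them with normexp and quantile scaling. T cell and B cell markers had 1 lower gene each, of 3 and 2 measured, and 0 with spike-in scaling. None of 3 measured erythroid markers passed 2-fold in the main setting. With spike-in scaling and with quantile scaling, also after normexp, 3 were past 2-fold and higher. With loess, the value table, or normexp and the 75th percentile, 2 were. The erythroid sums were 1488 on the Nrdc-cKO array and 1398 on the WT array. Without Hba-a1, the brightest of them on the Nrdc-cKO array, they were 457 on that array and 279 on the WT array. Of 6 skeletal muscle markers 1 was measured on both arrays, and Myh4, Ckm and Myh1 were detected on neither. The part of these cell types in the heat shock gene differences was not tested. Of non-control spots, 60.3% on the Nrdc-cKO array and 46.3% on the WT array were well above background. Among all genes past 2-fold, the share that was higher was 42.5% in the main setting and 27.9% with no filter. It was 53.0% for the 75th percentile over detected probes, 53.4% for loess, 58.0% for quantile scaling after normexp, 72.9% for the value table and 98.9% for spike-in scaling.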

How the data were processed

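Total RNA of Nrdc-cKO and of WT pancreas was read on 1-colour Agilent mouse arrays, 1 array each, and per the file headers both lay on 1 slide and shared a scan. The deposited intensity of each spot had been background-corrected and spatially detrended by Agilent Feature Extraction, version 12.0.3.1 per the file headers, while the submitters' processing notes name 11.5.1.1, and was not normalized between arrays. The authors' deposited value table held the same intensity times 1.92 for Nrdc-cKO and 4.37 for WT, on a linear scale and uncentred, with constants whose origin the sources do not state.

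Outlier spots (74 on the Nrdc-cKO array and 80 on the WT array) were left out and none was saturated. Log2 signals were averaged over repeat spots, and the 75th percentile over non-control probes was subtracted. A probe was detected on an array where a share of 0.5 or more of its spots stood well above background, and a gene was the mean difference over probes detected on both arrays. Probes were named by unversioned RefSeq accession through a GRCm38.p6 gene table (32993 of 35885, 91.9%), and the array design refers to another build. Of the 18 member probes, 15 were detected on both arrays, 1 on neither, and 2 in Nrdc-cKO alone.

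No p-value was computed, and the number of arrays limits the precision. Summed scaled signals add, over a marker list, each gene's signal divided by the 75th percentile. The members, lists and rule for named genes (all members, Nrdc, Hsf1, Hspa5, Hsp90b1, and the highest and lowest gene of each list) were chosen with earlier results of these data known. Alternatives covered scaling, normexp in limma 3.58.1 with an offset of 50, the filter, the probe rule, outlier spots and the threshold. The gene values were tested on simulated arrays with known differences and a constant shift between the arrays. A shift that varies with brightness was not simulated. Python 3.11.15 and pandas 2.3.3 were used.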

Additional observations from a re-analysis of the deposited data

How the results depend on the processing

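No paired analysis was possible because there was a single array in each group, and no replicate could be left out. Hspa1a, Hspa1b and Dnajb1 were past 2-fold and higher in the main setting and in all 12 other settings of scaling, background, filter and probe rule, and 0 members were past 2-fold and lower in any of them. Each of these 3 genes had 1 probe, so the filter and probe-rule settings could not change their values. Only quantile scaling, loess and normexp could move them by other than a constant shared with all genes. The number of members past 2-fold and higher was 3 in the main setting, against 12.8% of all genes. It was 5 for quantile scaling, against 13.8%, and 5 for loess, against 15.1%. For the value table it was 8, against 22.2%, and for spike-in scaling 10, against 79.8%. Normexp on the median signal gave 6 when followed by the 75th percentile, against 9.58%, and 5 when followed by quantile scaling, against 9.01%. A threshold of 1.5-fold gave 6, against 20.1% of all genes, and one of 4-fold gave 2, by construction. The member median was 0.74 in the main setting. It was 1.05 for quantile scaling, 0.90 for the 75th percentile over detected probes, 0.80 for their median, 1.07 for loess, 2.63 for spike-in scaling and 1.24 for the value table. Normexp gave 1.1 when followed by the 75th percentile and 1.01 when followed by quantile scaling, no filter gave 0.66 and the brightest probe of each gene gave 0.67. Spike-in scaling, the value table and the detected-probe settings add the same amount to every gene by construction. No filter and the brightest probe change only which probes of a gene are averaged. With no filter Hsph1 went from 0.74 to 0.33 and Dnaja1 from 0.42 to 0.43. By the brightest probe Hsp90aa1 was at 0.66, Hsph1 at 0.67 and Hspa8 at 0.57. For quantile scaling, loess and normexp the cause was not tested. Signal over background limits 2 probes of Dnaja1 and 1 of Hsph1.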
